A study of Arabidopsis thaliana with 11 samples.

Results

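The SHINE and MIXTA-like cuticle regulators of Arabidopsis thaliana were examined as potential direct target genes of the MADS-domain transcription factors (TFs) APETALA1 (AP1) and SEPALLATA3 (SEP3). The set has 5 loci, SHN1 (AT1G15360, also called WIN1), SHN2 (AT5G11190), SHN3 (AT5G25390), MYB106 (AT3G01140, NOECK) and MYB16 (AT5G15310, MIXTA). Its members are the binding sites (BSs) whose deposited gene columns name 1 of these loci, which gave 16 of 18963 BSs in 6 lists, while 9141 loci were named in all. BSs were mapped by chromatin immunoprecipitation followed by sequencing (ChIP-seq), in which DNA bound to a protein is recovered with an antibody and enriched stretches are called as peaks. All samples were inflorescences of Landsberg plants of genotype pAP1::AP1-GR ap1 cal treated with dexamethasone (DEX). In these plants AP1 is fused to the hormone-binding domain of a glucocorticoid receptor and driven by its own promoter, the endogenous AP1 and CAULIFLOWER genes are mutated, and DEX starts floral meristems together. An anti-GR antibody recovered AP1-GR and a peptide antibody recovered SEP3, at 2, 4 and 8 days of induction, and pre-immune serum served as mock control of each day. The AP1 that was mapped is therefore the fusion protein, and SEP3 was mapped in the same plants.

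Plant epidermis is sealed by the cuticle, a layer of the polyester cutin filled and coated with waxes, and petals carry nanoridges of cutin on conical cells. The SHINE genes encode AP2/ERF-type TFs that activate genes of cutin formation and are known for the glossy leaves of plants that overexpress them. MYB106 and MYB16 encode MYB-type TFs of the MIXTA group, which promote the conical shape of petal cells and cuticle formation, and MYB106 is known to activate SHN1. AP1 is known to specify floral meristems and sepals, and SEP3 to act with the other floral organ identity proteins. MADS-domain proteins such as AP1 and SEP3 bind DNA as dimers or tetramers at CArG boxes, searched here as CC and GG around 6 bases that are each A or T.

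The AP1 lists of days 2, 4 and 8 held 498, 956 and 1075 BSs, and those of SEP3 held 1776, 6843 and 7815. The fold enrichment of a BS is the ratio of signal at its summit over the control as the peak caller wrote it, and −log10 q is its significance after correction. Each list was called separately on combined replicates, so fold enrichment was set between lists only as the share of the same list with a lower value, and no test was made. Read depth was not analysed here, although the supplement of the paper lists fewer uniquely aligned reads for both factors at the earliest day than at either later day. A site with no listed BS may still have been bound, and the part of depth in the absence of BSs was not tested. The SEP3 day 2 samples are titled as day 2 but their tissue label reads 4 days, a doubt that touches every statement on that list.

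Neither AP1 nor SEP3 had a BS at any of the 5 loci at day 2. At days 4 and 8 AP1 had BSs at 1 locus, SHN1. SEP3 had BSs at SHN1 alone at day 4 and at all 5 loci at day 8. Of all 27444 protein-coding nuclear genes, 1.78% were named in the AP1 list of day 2, 3.55% in that of day 4 and 3.89% in that of day 8. For SEP3 the shares of all genes were 6.59%, 25.7% and 28.3% at days 2, 4 and 8. The 5 of 5 loci named for SEP3 at day 8 thus stand beside 28.3% of all genes, and the 1 of 5 named at day 4 beside 25.7%. Counted as BSs, AP1 had 0, 2 and 2 at the 5 loci by day, and SEP3 had 0, 3 and 9. The loci fell into a pair of patterns, SHN1 with both factors from day 4 and the other 4 loci with SEP3 at day 8 only.

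**Figure D1:**
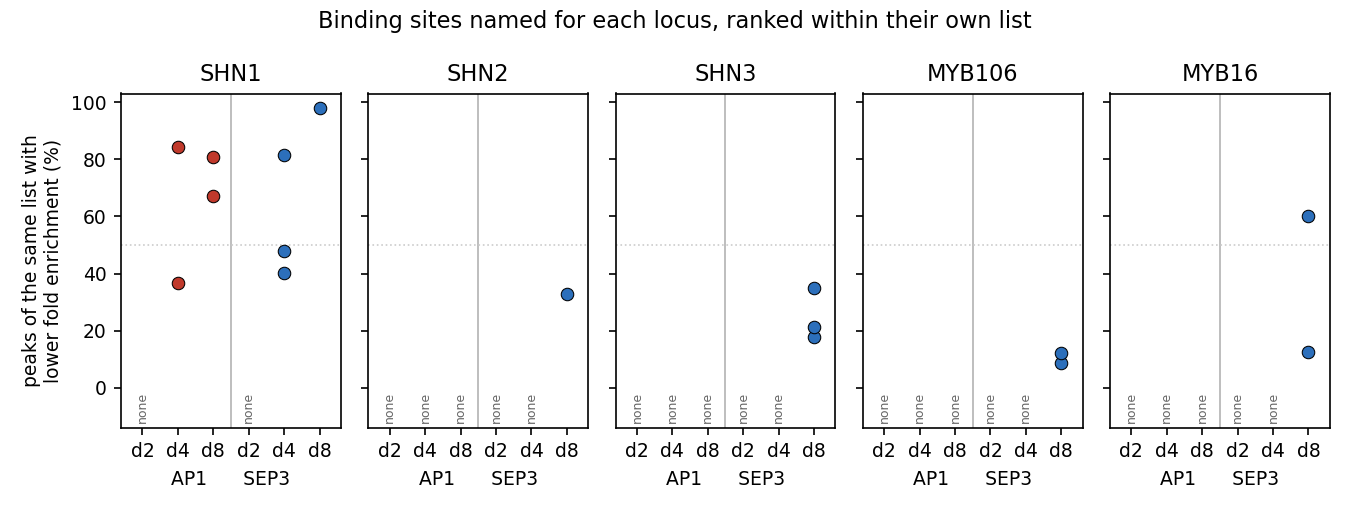
Each point is 1 BS named for the locus of that panel, with its list on the x axis (d2, d4 and d8 are days 2, 4 and 8) and, on the y axis, the share of BSs of the same list with a lower fold enrichment (percent). Red points are AP1 and blue points SEP3, the dotted line marks 50% and "none" marks a list with no BS. SHN1 holds every AP1 point, and its SEP3 day 8 point, at 98.1%, is the highest of all.

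SHN1 lies at chr1:5283268-5284736 on the plus strand (TAIR10, as are all positions), with 3279 bp to the next gene upstream, AT1G15350, and 2129 bp to the next downstream, AT1G15370. It was the sole locus of the set bound by AP1, with a BS in the promoter and a BS across the gene start at both later days. At day 4 the promoter BS of AP1, chr1:5282510-5282777, had its summit 647 bp upstream of the gene start, a fold enrichment of 3.88 and a −log10 q of 8.99. The second AP1 BS of day 4, chr1:5283119-5283807, had its summit in the 5′ UTR, 325 bp into the gene, with a fold enrichment of 5.72 and a −log10 q of 21.96. The BS at the gene start was the higher of the pair at day 4. It had a higher fold enrichment than 84.2% of the AP1 day 4 list, and the promoter BS than 36.8%.

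At day 8 the order of the AP1 pair was the other way round. The promoter BS, chr1:5282324-5282765, had a fold enrichment of 4.23 and a −log10 q of 19.2, above 80.7% of the list. The BS at the gene start, chr1:5283115-5283818, had a fold enrichment of 3.56 and a −log10 q of 15.89, above 67.0% of the list. Set as a ratio within each list, the gene start BS had 1.47 times the fold enrichment of the promoter BS at day 4 and 0.84 times at day 8. Both are single values from pooled replicates, so whether the ratios differ beyond replicate spread cannot be told. Both AP1 summits of day 8 lay upstream of those of day 4, by 189 bp in the promoter (836 bp from the gene start) and by 210 bp at the gene start (115 bp into the 5′ UTR). Over 642 overlapping pairs of AP1 BSs of days 4 and 8, the median distance between summits was 34 bp, and 6.07% of pairs lay 189 bp or more apart and 5.76% 210 bp or more.

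SEP3 bound the same stretch of SHN1 at day 4 with 3 BSs. The farthest, chr1:5281846-5282109, had its summit 1270 bp upstream of the gene start, with a fold enrichment of 3.83. It overlapped no AP1 BS. The next, chr1:5282490-5282865, had its summit 599 bp upstream, at 4.11. The BS at the gene start, chr1:5283060-5283810, peaked 355 bp into the gene, in the first coding exon, with a fold enrichment of 6.51 and a −log10 q of 38.03. These stood above 40.1%, 47.8% and 81.4% of the SEP3 day 4 list, so the gene start BS was the highest of the 3, as for AP1 at the same day. Here it had 1.58 times the fold enrichment of the nearer promoter BS. The SEP3 and AP1 summits of day 4 were 48 bp apart in the promoter and 30 bp apart at the gene start, against a median of 28 bp over 954 overlapping pairs of that day.

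At day 8 a single SEP3 BS, chr1:5281754-5283864, covered all of this stretch. It was 2111 bp wide, spanned each of the 3 SEP3 BSs of day 4 whole, and was the 23rd widest of 7815, wider than 99.7% of the list. Its summit stayed in the first coding exon, 375 bp into the gene and 20 bp from the day 4 summit (median 18 bp over 6017 pairs). Its fold enrichment of 7.96 ranked 149 of 7815, above 98.1% of the list, and its −log10 q was 115.04. The AP1 summit of the gene start lay 260 bp from it, against a median of 47 bp over 1038 overlapping pairs of day 8, of which 13.6% lay 260 bp or more apart. Of all genes, 0.528% (145) had BSs of both factors at days 4 and 8 and of neither at day 2, as SHN1 had. Without the SEP3 day 2 list the pattern of both factors at days 4 and 8 and no AP1 at day 2 covered 1.30% of genes.

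**Figure D2:**
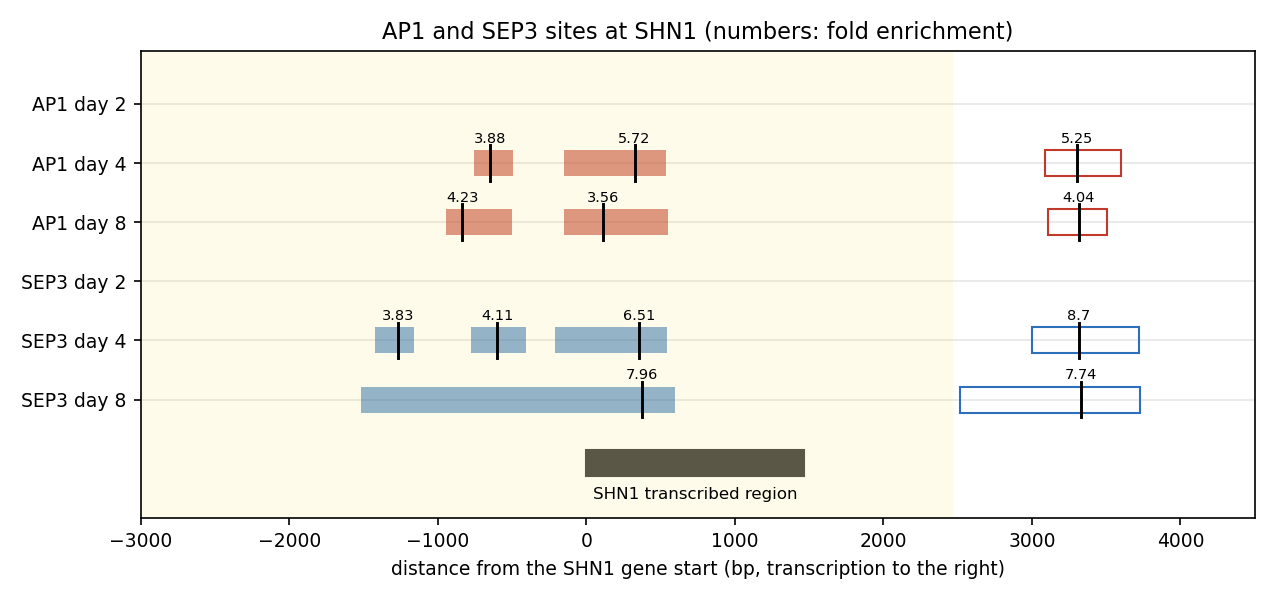
Bars are the BSs of each list (rows) around SHN1, placed by distance in bp from the gene start, with a black line at the summit and the fold enrichment (ratio over control) above it. Filled bars name SHN1, open bars lie past its assignment window (pale yellow, 3000 bp upstream to 1000 bp downstream) and name AT1G15370, and the grey box is the transcribed region. Both rows of day 2 are empty, and the single SEP3 BS of day 8 covers the stretch of the 3 SEP3 BSs of day 4.

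A further BS stood just outside the SHN1 window in the same 4 lists. Its summit lay 1838 to 1861 bp past the gene end, 838 to 861 bp past the window, and the authors' columns assign it to AT1G15370. Its fold enrichment was 5.25 for AP1 at day 4 and 4.04 at day 8, and 8.7 for SEP3 at day 4 and 7.74 at day 8. It stood above 77.1%, 77.9%, 93.5% and 97.6% of these lists. For SEP3 at day 4 it was above the highest BS inside the window, at 8.7 against 6.51. The promoter BSs of AP1 at both days and of SEP3 at day 4 name AT1G15350 besides SHN1, and which of the genes such a BS acts on cannot be told from its position.

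The sequence at SHN1 was read because the window of each gene can be searched for the element that MADS-domain proteins are known to bind. The SHN1 window held 1 exact CArG box, at chr1:5281843-5281852, 1421 bp upstream of the gene start. It lies whole inside the SEP3 BS of day 8 alone. It also overlaps the edge of the farthest SEP3 BS of day 4, which starts at chr1:5281846, and lies 151 bp from that summit. A further stretch with 1 mismatch to the box, called a near box here, lies 6 bp from the AP1 summit of day 8 in the promoter, at chr1:5282434-5282443. Another, at chr1:5283748-5283757 in an intron, lies inside the gene start BSs of all 4 lists. Near boxes are common: with 1 mismatch allowed, 31.9 to 34.7% of all BSs in the 6 lists held a box within 50 bp of the summit. A near box at chr1:5281917-5281926, CCAGAAAAGG, lies inside SEP3 BSs of days 4 and 8, 77 bp from the SEP3 summit of day 4. The others are printed on the strand of the gene with the box or near box in capitals.
SHN1 exact box, chr1:5281833-5281862: tcagtatggcCCAATAAAGGcccattttga
SHN1 near box at the AP1 day 8 summit, chr1:5282424-5282453: caagccaccaCCAAATTAGCacctcaaaaa
SHN1 near box in the intron, chr1:5283738-5283767: tctctctgatCCATTAAAGTacacaaccac

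A pair of other motifs was found at SHN1 summits. A GA repeat, 8 alternating bases of G and A on either strand, stood within 50 bp of the AP1 summit of day 8 in the 5′ UTR, where 1.77% of the summit windows of that list hold one. A G-box (CACGTG, the same on both strands) stood within 50 bp of the farthest SEP3 summit of day 4, against 5.44% of the windows of that list. Each motif was in only 1 of the 16 windows at the 5 loci. Over the 6 lists, 1.77 to 7.23% of all windows held a GA repeat and 2.93 to 5.8% a G-box, so neither motif is particular to SHN1. They are shown with the motif in capitals, the GA repeat as its complement on the gene strand.
SHN1 GA repeat, chr1:5283400-5283427: ctaaattctaTCTCTCTCtctataataa
SHN1 G-box, chr1:5282031-5282056: gacattcaatCACGTGattttcgtgt

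The other 4 loci had 8 BSs, all for SEP3 at day 8 and none in the other 5 lists. Of all genes, 5.05% (1387) were named in this list and in no other, against 4 of 5 loci here. The share of all genes was 5.09% without the SEP3 day 2 list, and 4 of the 5 loci had this pattern with or without it. The 8 BSs had fold enrichments of 2.31 to 3.65 with a median of 2.54, below the list median of 3.27 in 7 of 8. Their −log10 q ran from 8.73 to 30.16 with a median of 11.96, and 2 were below 10. Among the 4032 SEP3 BSs of day 8 with fold enrichments in the same range, 36.7% overlapped no SEP3 BS of day 4. All 8 BSs overlapped none either. That follows almost wholly from their loci being named in no other list, so it is no further result. The SEP3 list of day 8 is also the longest of the 6, with 7815 BSs against 6843 at day 4, and the part of list length in these calls was not tested.

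**Figure D3:**
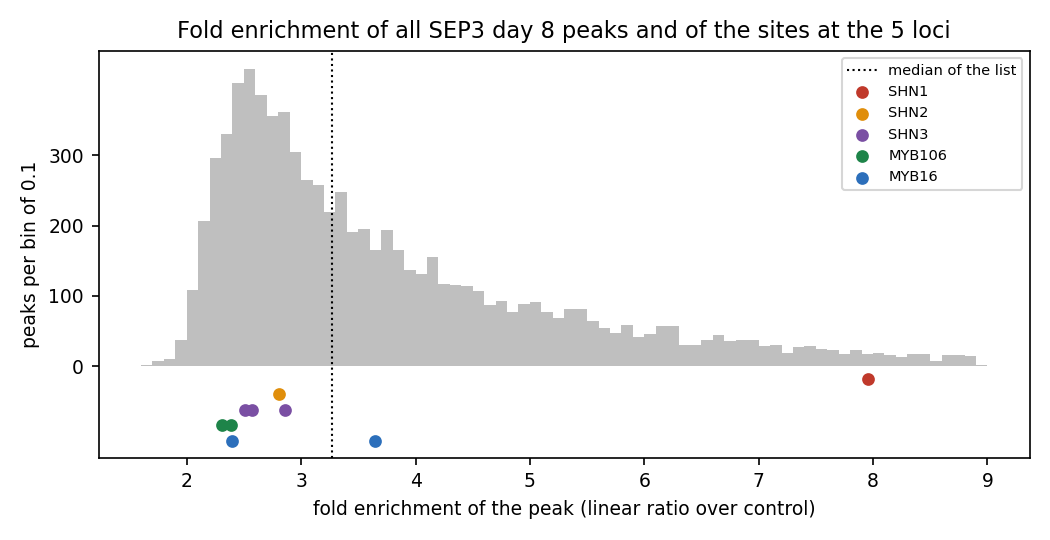
Grey bars count all 7815 SEP3 BSs of day 8 by fold enrichment (x axis, linear ratio over control, bins of 0.1), the dotted line is the list median, and coloured points below the bars are the 9 BSs at the 5 loci. The SHN1 point lies at 7.96, while 7 of the other 8 points lie left of the median and 1 BS of MYB16 lies right of it.

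SHN2 lies at chr5:3564824-3566260 on the plus strand. It had 1 BS, chr5:3564453-3564712, with its summit 213 bp upstream of the gene start, a fold enrichment of 2.81 and a −log10 q of 12.66. It stood above 32.8% of the list. The row also names AT5G11200 (UAP56b), the next gene downstream of SHN2, and the summit overlaps an annotated noncoding transcript, AT5G01855. No list had any further BS within 10 kb of SHN2. The BS holds 2 copies of the same near box, CCCTATATGG, 49 and 92 bp from the summit. The whole SHN2 window, from 3000 bp upstream to 1000 bp downstream, held 14 near boxes. Distances of boxes are counted to their middle. The nearer copy reaches past the window of 50 bp, so it is not in the count of summit windows with a near box. Both are printed with the near box in capitals.
SHN2 nearer copy, chr5:3564548-3564577: aaaagagagtCCCTATATGGcatgaaagta
SHN2 farther copy, chr5:3564505-3564534: aggcatgagtCCCTATATGGgtcgatcgtg

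SHN3, at chr5:8820458-8822062 on the plus strand, had 3 BSs, the most of the 4 loci. The upstream BS, chr5:8818896-8819100, had its summit 1453 bp from the gene start and a fold enrichment of 2.86. The middle BS, chr5:8820278-8820786, had its summit 2 bp into the 5′ UTR, at the gene start, with a fold enrichment of 2.51. The last, chr5:8822084-8822296, peaked 1719 bp from the gene start, downstream of the gene end, at 2.57. They stood above 34.9%, 17.9% and 21.2% of the list, so all 3 lay below its median and the upstream BS was the highest. The middle and last BSs also name AT5G25400. As at SHN2, no list had another BS within 10 kb. A near box lies 17 bp from the upstream summit and is printed in capitals.
SHN3 near box, chr5:8819008-8819037: aggttcataaCATTTAATGGacaacaacta

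The gene start was a BS in both SHN1 and SHN3, and their sequences could be aligned there. The shared stretch has 86 columns, 88.4% of them identical, and lies 337 to 422 bp into SHN1 and 175 to 260 bp into SHN3. Of its bases, 80 are coding in each gene. It therefore lies mostly in the protein-coding part that the paralogs share, and the SEP3 summits of days 4 and 8 at SHN1, in the same exon, lie inside it, while the SHN3 summit lies upstream of it. The authors kept only reads with a single place in the genome.

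MYB106, at chr3:46330-48296 on the minus strand, had 2 BSs, both upstream. The nearer, chr3:49096-49300, had its summit 854 bp from the gene start, with a fold enrichment of 2.31 and a −log10 q of 8.73, the lowest of the 8. The farther, chr3:49371-49943, had its summit 1548 bp from the gene start, at 2.39 and 9.94. They stood above 8.56% and 12.2% of the list. With a −log10 q of at least 10, MYB106 would have no BS and SEP3 would be named at 4 of the 5 loci at day 8. Both BSs name AT3G01150 (PTB1), the next gene upstream, and the nearer also names the noncoding gene AT3G01142. At day 4, SEP3 had no BS in the MYB106 window, and its closest, 3961 bp past the gene end, was assigned to AT3G01120.

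MYB16, at chr5:4974671-4976470 on the plus strand, also had 2 upstream BSs. The farther, chr5:4972809-4973483, was the highest of the 8, with a fold enrichment of 3.65 and a −log10 q of 30.16, above 60.0% of the list. Its summit lay 1623 bp from the gene start and overlaps an annotated noncoding transcript, AT5G02375. The nearer, chr5:4973916-4974140, peaked 645 bp from the gene start at 2.4, above 12.5% of the list. A further SEP3 BS of day 8 lay 3155 bp upstream, 155 bp past the window, with a fold enrichment of 3.2, and names AT5G15300. Within 10 kb past the gene end SEP3 also had 2, 3 and 3 BSs by day, all assigned to other genes. Those of day 4 lay 3012, 8326 and 9818 bp past the gene end and stood above 34.0%, 90.0% and 92.5% of their list, and the summits of day 8 lay at 3025, 8301 and 9819 bp. SEP3 BSs were thus listed near MYB16 before day 8, but none inside its window.

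**Figure D4:**
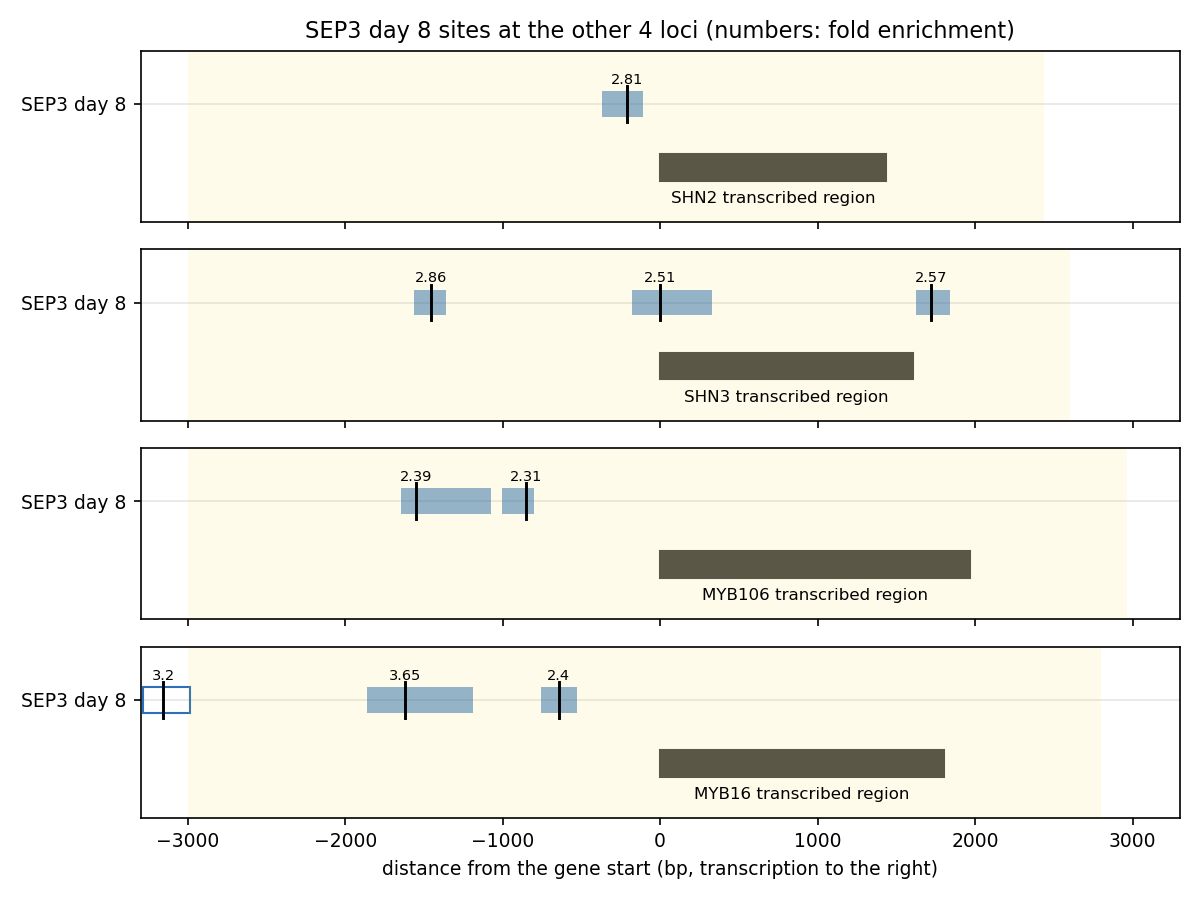
Each panel shows the SEP3 BSs of day 8 (bars, with a black line at the summit and the fold enrichment above it) by distance in bp from the gene start of SHN2, SHN3, MYB106 or MYB16, all drawn with transcription to the right. Grey boxes are transcribed regions and pale yellow is the assignment window. MYB106 and MYB16 each have a wide BS about as far upstream, with summits at 1548 and 1623 bp, and the open bar at MYB16 lies past its window.

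The farther BSs of MYB106 and MYB16 lie at like distances, and their sequences were compared, a comparison chosen after the summit sequences had been seen. The summits lie within a stretch of 69 bases at MYB106 and 70 at MYB16 that aligns over 71 columns with 62 identical (87.3%). In it the MYB106 summit is base 33 and the MYB16 summit base 20, counted from the 5′ end on the gene strand. The stretches are printed on the gene strand with identical bases in capitals, MYB106 at chr3:49808-49876 and MYB16 at chr5:4973029-4973098.
MYB106 summit stretch: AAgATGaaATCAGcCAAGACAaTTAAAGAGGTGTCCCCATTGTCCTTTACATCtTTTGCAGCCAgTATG
MYB16 summit stretch: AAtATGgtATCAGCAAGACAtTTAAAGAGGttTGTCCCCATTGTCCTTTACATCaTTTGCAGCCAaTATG
The longest run the stretches share has 22 bases, TGTCCCCATTGTCCTTTACATC, and it occurs 2 times in the nuclear genome, once at each locus.

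A second stretch of the same BSs, nearer to the genes, was shared over 291 columns with 223 identical (76.6%). It lies 1208 to 1489 bp upstream of MYB106 at chr3:49504-49785 and 1205 to 1481 bp upstream of MYB16 at chr5:4973190-4973466. It ends 59 bp from the MYB106 summit and 142 bp from the MYB16 summit. Identical bases are again in capitals.
MYB106 second stretch: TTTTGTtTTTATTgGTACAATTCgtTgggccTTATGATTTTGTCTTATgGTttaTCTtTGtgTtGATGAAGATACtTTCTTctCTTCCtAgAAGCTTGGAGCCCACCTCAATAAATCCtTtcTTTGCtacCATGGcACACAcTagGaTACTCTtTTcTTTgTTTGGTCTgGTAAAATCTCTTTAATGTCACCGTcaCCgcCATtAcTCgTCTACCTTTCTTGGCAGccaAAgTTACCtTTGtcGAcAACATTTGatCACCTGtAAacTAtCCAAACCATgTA
MYB16 second stretch: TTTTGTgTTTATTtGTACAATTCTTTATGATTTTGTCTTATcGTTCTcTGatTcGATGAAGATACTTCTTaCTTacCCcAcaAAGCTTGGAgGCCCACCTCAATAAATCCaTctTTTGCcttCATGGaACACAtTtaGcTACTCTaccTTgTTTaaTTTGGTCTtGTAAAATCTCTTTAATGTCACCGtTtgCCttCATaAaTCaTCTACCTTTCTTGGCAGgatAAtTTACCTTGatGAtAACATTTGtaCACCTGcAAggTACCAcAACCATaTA
Its longest shared run, of 24 bases, also occurs 2 times in the nuclear genome. Over the 3000 bp upstream of the 5 genes, this was the longest shared stretch of the 10 locus pairs. The other 9 pairs shared 16 to 186 columns, with longest runs of 12 to 16 bases. Among 31 pairs of BSs of different loci, all but this pair and the coding stretch of SHN1 and SHN3 shared 10 to 53 columns with runs of 7 to 12 bases.

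No exact CArG box lay within 50 bp of any of the 16 summits, nor within 100 bp. In the 6 lists, 5.58 to 7.09% of all summit windows of 101 bases held one. With 1 mismatch allowed, 3 of the 16 windows held a box, against 31.9 to 34.7% of all. The 3 were the AP1 promoter BS of SHN1 at day 8, the upstream BS of SHN3 and the farther BS of MYB106. Of the windows of 3000 bp upstream to 1000 bp downstream, that of SHN1 held 1 exact box and those of the other 4 loci none, and 33.5% of all genes held at least 1. The sequence is that of the reference assembly and not of the Landsberg plants, and no match says only that these letters are not in the window.

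By the number of BSs, SHN3, MYB106 and MYB16 each had 2 or more SEP3 BSs at day 8, as 9.13% (2505) of all genes had. The most alike gene to SHN1 was sought among 9139 loci by the distance between their highest within-list ranks over the 6 lists, in points, with 0 where no BS was listed. The 5 nearest were AT1G35430 at 7.7, AT2G36090 at 9.6, OFP16 (AT2G32100) at 9.9, AT1G76620 at 12.1 and scpl29 (AT4G30810) at 13.5, against a median of 136.9 over all loci. OFP16, an ovate family protein, stood above 90.4% and 86.7% of the AP1 lists of days 4 and 8 and above 86.3% and 97.4% of the SEP3 lists. The other 4 members were named in 1 list each, too few for this comparison.

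Genes that form, export or regulate the cuticle were listed from textbook knowledge, 40 in all, with 2 relatives of the members, MYB17 and ESE3, to set the regulators beside the rest of the pathway. AP1 BSs were named for 3 of 42 genes at day 2, 4 at day 4 and 4 at day 8, which are 7.14%, 9.52% and 9.52%. SEP3 BSs were named for 8, 26 and 29 at the same days, which are 19.0%, 61.9% and 69.0%. These shares are beside 1.78%, 3.55% and 3.89% of all genes for AP1 and 6.59%, 25.7% and 28.3% for SEP3. Without the 2 relatives the counts were 2, 3 and 3 of 40 for AP1 and 7, 24 and 27 of 40 for SEP3, since MYB17 was in all 6 lists. No list had a BS for 11 of the 42 genes, and the share of all genes in no list was not counted. The SEP3 day 8 list alone named 5 of the 42, against 5.05% of all genes, as it did 4 of the 5 SHINE and MIXTA-like loci. In the SEP3 list of day 8, 10 of 14 genes of cutin formation, 7 of 11 of wax formation, 3 of 6 of export and 7 of 9 further regulators had a BS.

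**Figure D5:**
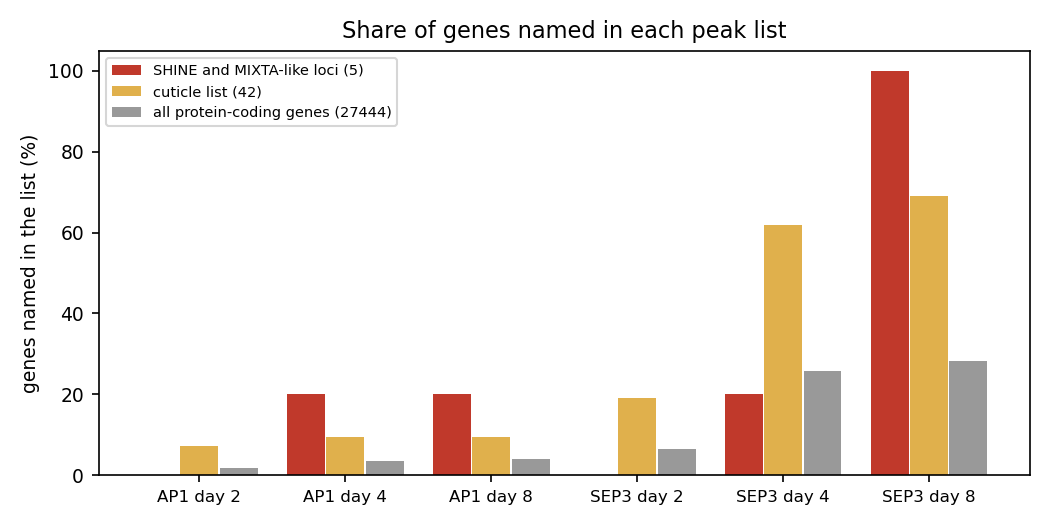
Bars give the share (percent) of genes named in each of the 6 lists, for the 5 SHINE and MIXTA-like loci (red), the 42 genes of the cuticle list with its 2 relatives (yellow) and all 27444 protein-coding genes (grey). A missing red bar means 0 of 5 loci. The red bar is 20% in 3 lists and 100% for SEP3 at day 8.

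Of the 42 genes, 5 had an AP1 BS, none of them with the SHN1 order of lists. MYB17, a MIXTA-group relative of MYB106 and MYB16, had BSs of both factors in all 6 lists. Its highest AP1 fold enrichments were 6.38, 4.41 and 3.14 at days 2, 4 and 8, above 91.8%, 56.0% and 47.8% of the lists. Its SEP3 BSs stood above 93.8%, 90.0% and 93.1%. The highest AP1 BS of day 4 was another site, 249 bp past the gene start, while those of days 2 and 8 lay upstream of the gene start. MYB17 was thus high in its AP1 list at day 2, when SHN1, MYB106 and MYB16 had no BS. BDG1 (BODYGUARD, a hydrolase-fold protein needed for the cuticle) was also in all 6 lists. Its AP1 fold enrichments were 4.04, 5.16 and 2.7, above 47.8%, 75.7% and 17.8% of the lists. Those of SEP3 were 3.48, 8.39 and 4.87, above 16.4%, 92.1% and 79.7%. HDG1, an epidermal homeodomain TF, was in all 6 lists too. Its AP1 BSs stood above 67.3%, 84.9% and 51.3% of the lists, and its SEP3 BSs above 92.4%, 99.4% and 98.3%. ATML1, a homeodomain TF that specifies the epidermis, had AP1 at day 8 alone (3.92) and SEP3 at all 3 days. KCR1, a reductase of fatty acid elongation, had AP1 at day 4 alone (3.13), above only 7.95% of the list and with a −log10 q of 5.43. It had SEP3 at all 3 days, with 10.72 at day 4, above 98.4% of the list.

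The 5 cuticle genes with the highest within-list rank among those bound by SEP3 alone were CFL1, CER6, CER1, CUS2 and HTH. For each gene the highest BS of each list was taken, which need not be the same site. CFL1, a regulator that limits cuticle formation, had SEP3 fold enrichments of 5.42, 8.14 and 5.88 at days 2, 4 and 8. These stood above 74.6%, 91.0% and 89.0% of the lists. The CFL1 summit lay 1601 bp past the gene start at day 2, and 576 and 582 bp past it at days 4 and 8. The other 4 had SEP3 BSs at days 4 and 8 and none at day 2. CER6, an elongase of wax precursors, had 5.13 and 5.73, above 66.2% and 88.1% of the lists, with its summit at another place at day 8. CER1, of alkane formation, had 4.13 and 5.03, above 48.1% and 81.5%. CUS2, a cutin synthase, had 4.66 and 4.77, above 58.7% and 78.7%. HTH (HOTHEAD, an oxidoreductase of cutin precursors) had 5.14 and 4.75, above 66.4% and 78.4%. These 5 were chosen for their rank, and the whole list ran lower. Over the 29 cuticle genes named for SEP3 at day 8, the highest BS of a gene stood above 7.55 to 98.3% of the list with a median of 67.0%, and 12 of 29 genes lay below 50%. The 5 cuticle genes in that list alone (CYP86A4, GPAT6, CER10, WSD1 and ABCG32, named after their values were seen) stood above 7.55 to 32.6%, and SHN2, SHN3, MYB106 and MYB16, of the same pattern, above 12.2 to 60.0%. ESE3, an ERF-type relative of the SHINE genes, had SEP3 BSs at day 4 (3.44, above 26.8% of the list) and day 8 (2.41, above 12.8%).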

How the data were processed

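Floral ChIP-seq peaks of AP1 and SEP3 at 2, 4 and 8 days were used, from 11 samples grouped by their titles. As the labels and the paper's methods state, the authors called bases with CASAVA (1.7 and 1.8, per the submitters' processing notes), mapped reads to TAIR10 with Bowtie (0.12.7), kept reads with a single place in the nuclear genome, pooled replicates, and called peaks of every factor and day against the mock control with MACS2, at an FDR below 0.001. By the paper's methods, CASAVA 1.7 served for AP1 at days 4 and 8 and 1.8 for the rest. The part of this difference in the AP1 lists was not tested. The deposited fold enrichment is a linear ratio. The deposited significance used here is −log10 of the q-value, and the column of p-values was not used. Gene columns are the authors' assignment, from 3000 bp upstream to 1000 bp downstream. Lists pool replicates and hold no depth, so no spread, interval or test is given.

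BSs were the rows naming a member. Overlap needed at least 1 bp. Sequence came from RefSeq's TAIR10 assembly, windows were 50 bp on each side of the summit, and near boxes allow 1 mismatch. All members were named with every BS, and cuticle genes if AP1-bound or, if bound by SEP3 alone, the 5 highest in rank. The 5 loci, the lists and these rules were chosen with earlier results of these data known. Scripts (Python 3.11.15, pandas 2.3.3, numpy 2.4.6) were tested on simulated data with planted peaks and boxes. Alternatives were a limit on −log10 q of 10, another gene window, other overlap rules, other motif windows, and rank by q.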

Additional observations from a re-analysis of the deposited data

How the results depend on the processing

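Most counts moved little under the alternatives: of 58 values of the main counts, 51 stayed within 1.5 times and 7 did not. The 51 include the day 2 counts of 0 at the 5 loci, which a stricter limit or a narrower window could not raise. With a −log10 q of at least 10, AP1 BSs at the 5 loci at day 4 fell to 1 of 2, and cuticle genes named for SEP3 at day 2 to 5 of 8. With a gene window of 1000 bp upstream to the gene end, SEP3 BSs of day 8 at the 5 loci fell to 5 of 9, with all 5 loci kept. Regions bound by both factors at the same day numbered 1 by any overlap and 2 with summits within 150 bp or a reciprocal overlap of 50%, because the wide SEP3 BS of day 8 joins the SHN1 sites. Summits with a CArG box numbered 0 within 50 bp, 3 with 1 mismatch and, over whole peaks, 1. Leaving out the SEP3 day 2 list, an alternative chosen after seeing the data, left 4 loci in the SEP3 day 8 list alone. Ranked by q and not by fold enrichment, the 16 BSs moved by at most 15.3 points up (MYB16) and 3.3 down (SHN2). Replicates could not be left out. No paired analysis was possible because each list pools its replicates. Read depth was not analysed here, so what an absent BS can show is limited.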
